A study of Mus musculus with 20 samples.

Results

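Fatty acid and triglyceride synthesis was examined through 33 genes of the pathway in mouse livers. The mice were fed a high-fat diet and labelled as susceptible or resistant to obesity. The genes were found by their current, older or newer symbols among the array's probes that were not controls. All 33 were present, with 64 of the 41174 different probes on the array, and all 33 were among the 17186 genes and unnamed probes tested. Livers came from 10 diet-induced obesity responders, which the labels describe as susceptible to obesity, and from 10 non-responders, which they describe as resistant. Every animal was a male C57BL/6J mouse, an inbred strain, fed from weaning on a high-fat diet (fat supplied 60% of the calories) until the liver was taken at 6 weeks of age. Livers on another diet and body weights were not analysed here. All animals thus share genotype, diet, sex and age, and the labels separate the groups by the response alone. The labels do not say how that response was scored. Since no label ties a sample to an animal, the p-values cover sample-to-sample spread, which may be partly technical.

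RNA of each liver was labelled with Cy3 and hybridised to 1 single-colour Agilent array. Levels are given as log2 of a probe's processed intensity relative to the 75th percentile of its array, so 0 means a signal equal to that percentile and a difference of 1 means a 2-fold difference. The level of a gene is that of its brightest probe, and levels of different genes are not set against each other. Arrays came in 2 slide series with different scan dates, with 4 responders and 6 non-responders in series 1, and 6 responders and 4 non-responders in series 2. The 75th percentile of processed intensity lay between 279 and 417 in series 1 and between 413 and 657 in series 2. The 5 hepatocyte markers with a value on every array, of 6 listed, were bright in every liver, with mean levels of 8.30 to 8.81 in responders and 8.22 to 9.01 in non-responders. All 33 genes were well above background on all 20 arrays, and the number of arrays limits the precision.

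Hepatocytes make fatty acids from acetyl-CoA, which ATP citrate lyase and acetyl-CoA synthetase supply, acetyl-CoA carboxylase turns into malonyl-CoA, and fatty acid synthase joins into palmitate. Elongases and desaturases then lengthen the chain and add double bonds, and acyltransferases, lipins and diacylglycerol acyltransferases place the chains on glycerol to form triglyceride, which is stored in droplets or secreted in very-low-density lipoprotein. The pathway is known in liver for its control by SREBP-1c under insulin and by ChREBP under glucose.

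None of the 33 genes passed the test between responders and non-responders. The limma fit held a term for group and a term for slide series, p-values were adjusted by Benjamini-Hochberg over all 17186 rows, and it called 0 rows at an adjusted p under 0.05, with a smallest adjusted p of 0.282. Adjusted p-values of the 33 genes lay between 0.626 and 0.984. At an unadjusted p under 0.05 the count was also 0 of 33, beside 8.02% of all rows tested (1379 of 17186). The differences, responder minus non-responder, were above 0 for 17 genes and below 0 for 16. Their median was 0.0087, beside -0.0021 for all rows tested. The 95% intervals of 28 of the 33 genes lay within 1 of 0 on the log2 scale, a smaller share than over all rows (16341 of 17186). Those 28 intervals leave out a 2-fold difference in either direction, and those of 15 genes lay within 0.5 of 0. For the rest of the 33 genes, a 2-fold difference lay inside the interval. It could not be told from no difference with this number of arrays. Several genes lay close to the unadjusted threshold, so the count of 0 moved with the setting. It became 5 without responder 6 (Fads2, Agpat1, Agpat6, Lpin1 and Lpin2), beside 9.76% of all rows. It became 4 without non-responder 4 (Acly, Acaca, Agpat1 and Lpin2), beside 9.18%, and 4 without non-responder 9 (Acaca, Me1, Scd2 and Fads2), beside 8.75%.

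**Figure D1:**
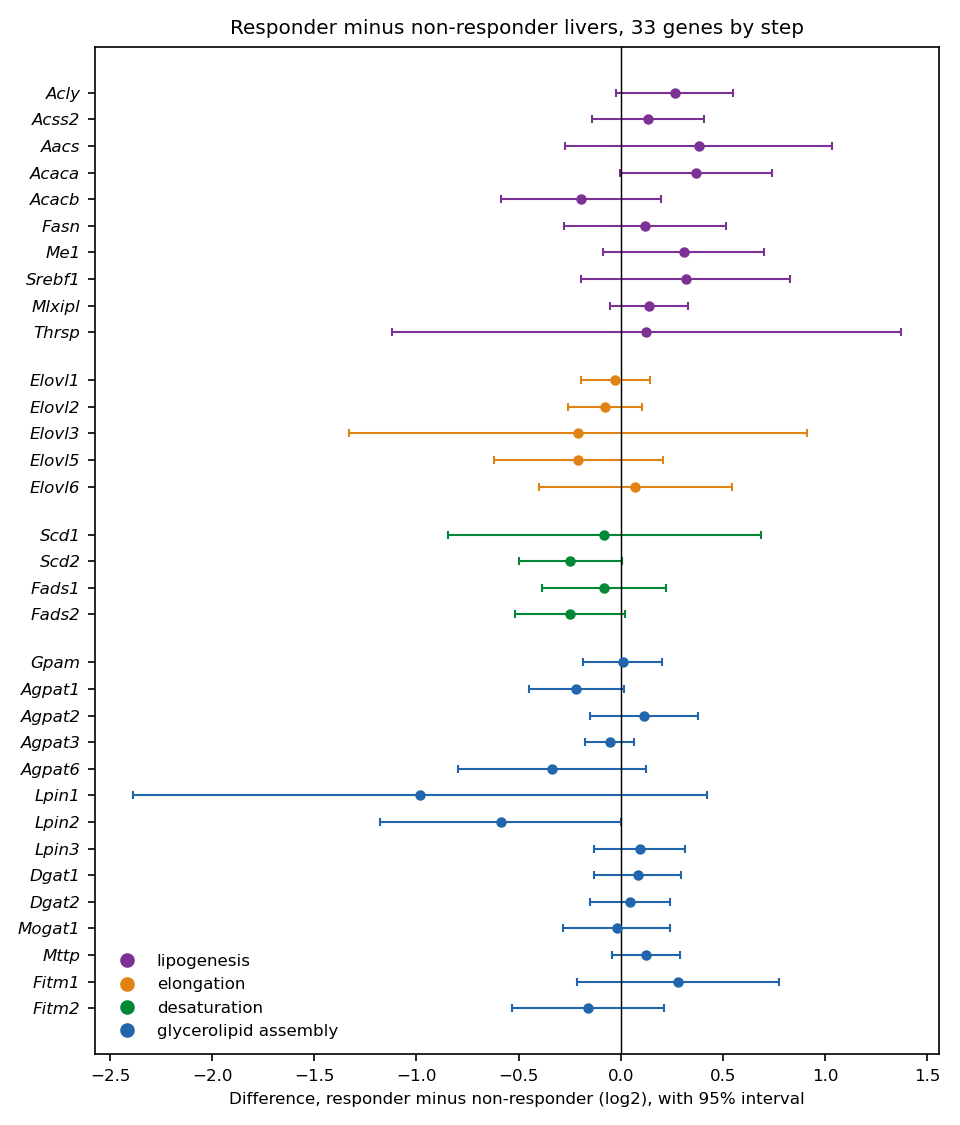
Difference between responder and non-responder livers (log2, horizontal axis) for the 33 genes, grouped by step (colours), with 95% intervals from the limma fit. All intervals include 0. Lpin1 and Thrsp have the widest intervals and Agpat3 the narrowest.

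The 10 genes of lipogenesis, from acetyl-CoA supply to palmitate with the regulators of these steps, had 9 differences above 0 and 1 below 0, with a median of 0.20 that turned to -0.16 under normexp background correction. All rows tested had 49.3% of differences above 0. None of the 10 passed the test at an unadjusted p under 0.05, and genes that vary together, as several of these did, are not independent counts. Within slide series the median difference of the 10 genes was 0.20 in series 1 and 0.18 in series 2, but only 5 of the 10 had the same sign in both.

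Fasn encodes fatty acid synthase, the enzyme that builds palmitate. Its probe lies on chromosome 11 at 120668460 to 120668519 (mm9). Its level was 5.52 at the lowest, 6.17 at the median and 6.68 at the highest in responders, against 5.16, 5.88 and 6.88 in non-responders. The groups overlapped over nearly their whole range, and both the lowest and the highest liver were non-responders. The difference was 0.12 (SE 0.19, adjusted p = 0.879). Over both slide series together, the SD was 0.63 in non-responders and 0.34 in responders. These SDs include any shift between the series, and the contrast in spread was not tested.

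Acaca encodes acetyl-CoA carboxylase 1, the cytosolic enzyme that makes malonyl-CoA for synthesis. Its level ran from -0.44 through a median of 0.25 to 0.72 in responders, against -0.64, -0.14 and 0.44 in non-responders. In responders 8 of 10 livers lay above the mean of the non-responders in their slide series, yet the groups overlapped. The difference of 0.37 (SE 0.18) had an unadjusted p of 0.0530 and an adjusted p of 0.627, and the exact permutation of group labels within slide series gave p = 0.0670 (two-sided). The difference was 0.51 in series 1 and 0.23 in series 2. Acacb, which encodes the mitochondrial acetyl-CoA carboxylase 2 whose malonyl-CoA restrains fatty acid oxidation, was the single lipogenesis gene with a difference below 0, at -0.19 (SE 0.19, adjusted p = 0.809).

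The genes that supply acetyl-CoA and reducing power had small positive differences. Acly, encoding ATP citrate lyase, had levels of 0.58, 1.02 and 1.46 in responders, against 0.10, 0.71 and 1.29 in non-responders. Its lowest liver was a non-responder and its highest a responder, and the difference was 0.26 (SE 0.14, adjusted p = 0.645). Acss2, encoding the cytosolic acetyl-CoA synthetase, differed by 0.13 (SE 0.13). Aacs, encoding acetoacetyl-CoA synthetase, which lets ketone bodies enter lipid synthesis, differed by 0.38 (SE 0.31), and by 0.13 without non-responder 8. Me1, encoding malic enzyme, a source of NADPH, differed by 0.31 (SE 0.19), and by 0.13 without non-responder 10. None of these 4 differences passed the test.

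Srebf1 encodes SREBP-1, the sterol regulatory element-binding protein that drives lipogenic genes under insulin. Its level was 5.18, 5.70 and 6.15 at the lowest, median and highest in responders, against 3.93, 5.36 and 6.50 in non-responders. All responders lay inside the range of the non-responders. With both slide series pooled, the SD was 0.78 in non-responders and 0.29 in responders. A shift between the series is part of these SDs, and the contrast in spread was not tested. The difference was 0.32 (SE 0.24, adjusted p = 0.768). Mlxipl, encoding the glucose-sensing factor ChREBP, had levels of 4.79, 5.17 and 5.38 in responders, against 4.53, 5.01 and 5.13 in non-responders. More of its high livers were responders, but the ranges overlapped and the difference was 0.14 (SE 0.09, adjusted p = 0.727). Thrsp, encoding the lipogenic protein Spot 14, had levels of 3.51, 5.20 and 7.27 in responders, against 3.53, 5.24 and 7.60 in non-responders, with a difference of 0.13 (SE 0.60). The ranges of the groups nearly coincided, and the interval for Thrsp, from -1.12 to 1.37, leaves a 2-fold difference in either direction possible. Per-liver values of Acly, Thrsp, Elovl3, Scd2, Fads2, Agpat1, Agpat6, Lpin1 and Lpin2 were chosen for display after their values were seen.

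**Figure D2:**
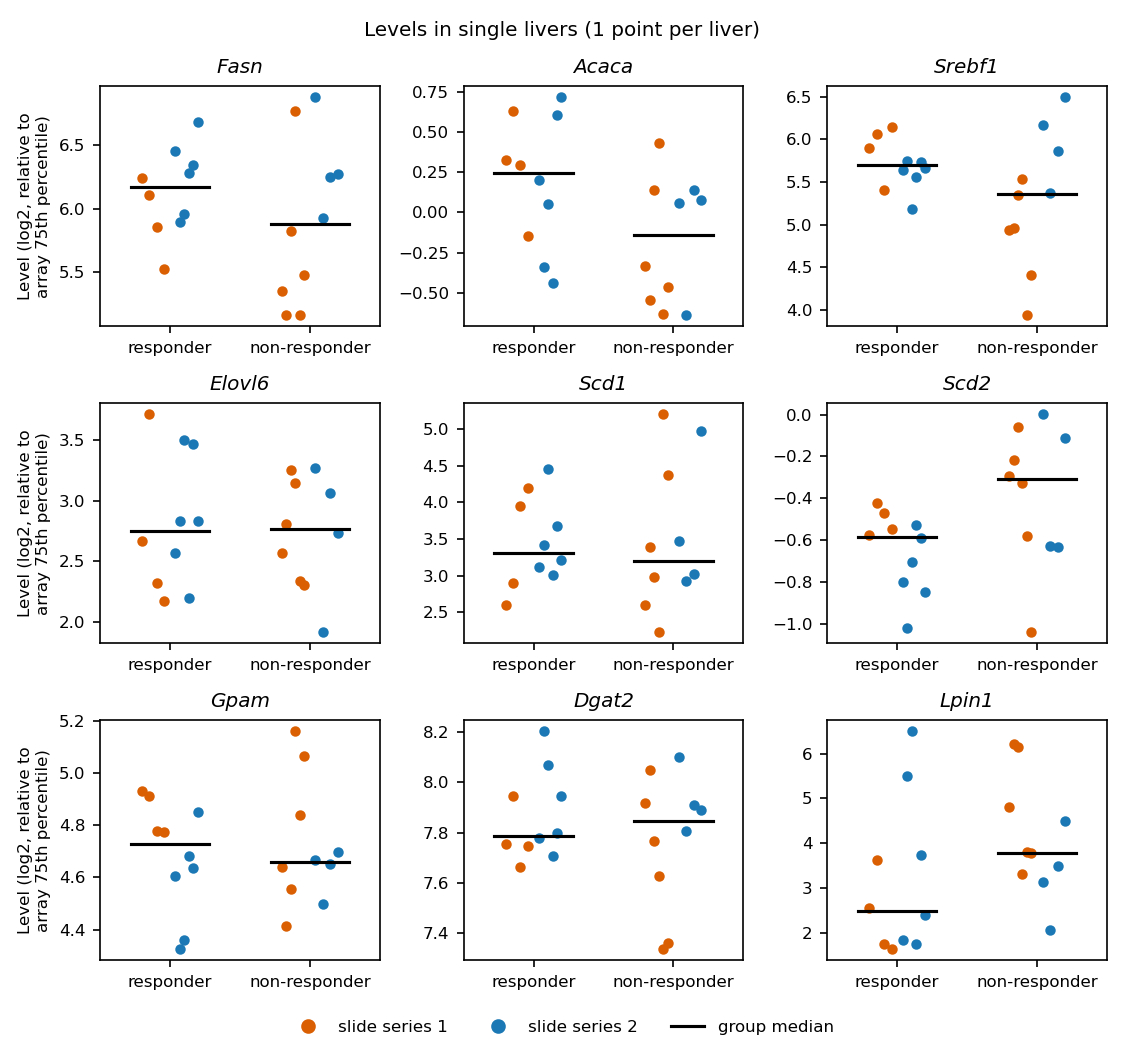
Levels in single livers (log2, relative to the 75th percentile of the array) for 9 genes, responders on the left and non-responders on the right, coloured by slide series, with bars at group medians. The groups overlap in every panel. Over both slide series together, Srebf1 spans a wider range in non-responders, and Lpin1 spans more than 4 log2 units in each group.

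Elongation had 1 difference above 0 and 4 below 0 among 5 genes, with a median of -0.08, and none passed the test. Elovl6, the elongase that takes palmitate to stearate, had levels of 2.18, 2.75 and 3.71 in responders, against 1.92, 2.77 and 3.27 in non-responders. The medians were nearly equal, and the difference was 0.07 (SE 0.23, adjusted p = 0.950). Elovl1, which acts on saturated very long chains, differed by -0.03 (SE 0.08), and Elovl2, which acts on polyunsaturated chains, by -0.08 (SE 0.09). Elovl5, which lengthens polyunsaturated chains, differed by -0.21 (SE 0.20). Elovl3, an elongase of saturated and monounsaturated very long chains, had levels of 2.30, 3.91 and 5.56 in responders, against 2.11, 3.87 and 6.11 in non-responders, and differed by -0.21 (SE 0.53). The 20 livers spanned a 16-fold range for Elovl3, with both extremes in non-responders.

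Desaturation had 4 differences below 0 among 4 genes, with a median of -0.16, and again none passed the test. Scd1, encoding the main stearoyl-CoA desaturase of liver, had levels of 2.60, 3.32 and 4.46 in responders, against 2.23, 3.21 and 5.21 in non-responders. The non-responders held both the lowest and the highest liver, and the difference was -0.08 (SE 0.37, adjusted p = 0.961). Fads1 and Fads2, encoding the delta-5 and delta-6 desaturases of polyunsaturated fatty acids, lie close to each other on chromosome 19. Fads1 differed by -0.08 (SE 0.14). Fads2 had levels of 3.68, 3.86 and 4.60 in responders, against 3.67, 4.29 and 4.55 in non-responders, and differed by -0.25 (SE 0.13, unadjusted p = 0.0697, adjusted p = 0.645). Its groups shared almost the same range, although the responders' median was lower.

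Scd2 encodes a stearoyl-CoA desaturase isoform known from brain and adipose tissue. Its level was -1.02, -0.58 and -0.42 in responders, against -1.04, -0.31 and 0.00 in non-responders. All 10 responders lay below the mean of the non-responders in their slide series, but the lowest liver was a non-responder. The difference was -0.25 (SE 0.12) with an unadjusted p of 0.0546, an adjusted p of 0.631 and an exact permutation p of 0.0627. The level of Scd2 followed the adipocyte markers from liver to liver. Of 8 adipocyte markers listed, 7 were tested, without Lep, and 5 of these (Adipoq, Cfd, Fabp4, Cidea and Lipe) were well above background on 5 or more arrays of each group. The other markers, Plin1 (3 responder and 8 non-responder arrays) and Retn (2 and 6), passed the filter only through the non-responders, so no difference is given for them. The mean over the 5 was chosen after the values were seen and is a description. The mean level of the 5 markers was -2.50 at the lowest, -1.51 at the median and 0.15 at the highest in responders, against -1.94, 0.31 and 1.55 in non-responders. Adipoq differed by -1.37 (SE 0.58), Cfd by -1.36 (SE 0.65), Cidea by -1.57 (SE 0.72), Fabp4 by -0.53 (SE 0.20) and Lipe by 0.03 (SE 0.07), and none had an adjusted p under 0.05. Across the 20 livers, Scd2 correlated with the mean of the 7 tested markers at r = 0.84 (permutation p = 1e-05, adjusted p = 0.00066 over 66 relations) and rho = 0.85 (permutation p = 2e-05, adjusted p = 0.00132). The same r was 0.80 in series 1, 0.92 in series 2 and 0.77 without the 2 livers farthest from the marker median, and 0.106% of all rows had an r at least as high. The mean of the 7 includes Plin1 and Retn, which passed the filter only through the non-responders. Its p-values and share are therefore a description and not support. With the mean of the 5 markers, r was 0.81 over all livers, 0.79 in series 1 and 0.88 in series 2, and this relation was not tested. With the level of Adipoq, the adipocyte hormone adiponectin, as a covariate, the Scd2 difference was -0.03 (SE 0.09). Fewer cells of a type and less RNA per cell cannot be told apart in such bulk samples. No other of the 33 genes passed the adjustment for a relation with the mean of the 7 adipocyte markers, which is likewise a description. Relations of the other genes with the mean of the 5 were not computed. None of the 33 genes passed the adjustment for the mean of 6 pancreatic acinar markers. That acinar mean ran from -5.58 to 5.10 in responders and from -4.92 to 5.12 in non-responders, and 0 of its 6 genes had an unadjusted p under 0.05. All 4 stellate cell markers had differences below 0, with Col1a1 at -0.56 (SE 0.17, unadjusted p = 0.00352, adjusted p = 0.488) and Col3a1 at -0.34 (SE 0.15, unadjusted p = 0.0396, adjusted p = 0.611), where 3.69% of all rows were lower at an unadjusted p under 0.05. Col1a1 differed by -0.23 in series 1 and -0.90 in series 2, and Col3a1 by 0.06 and -0.73. Des differed by -0.36 and -0.57, and Lrat by 0.01 and -0.09. The mean level of the 4 markers ran from -0.47 through a median of 0.11 to 1.08 in responders. In non-responders it was -0.18, 0.66 and 1.44. The part of these markers in the differences of the 33 genes was not tested.

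Glycerolipid assembly, from glycerol-3-phosphate to stored or secreted triglyceride, had 7 differences above 0 and 7 below 0 among 14 genes, with a median of -0.0061, and none passed the test. Gpam, encoding the mitochondrial glycerol-3-phosphate acyltransferase that starts the route, had levels of 4.32, 4.73 and 4.93 in responders, against 4.41, 4.66 and 5.16 in non-responders. The difference of 0.0087 (SE 0.09, adjusted p = 0.984) had a 95% interval from -0.18 to 0.20. Agpat6, the older name of Gpat4, encodes a microsomal glycerol-3-phosphate acyltransferase. It had levels of 4.46, 5.13 and 6.19 in responders, against 4.98, 5.73 and 6.32 in non-responders, and differed by -0.34 (SE 0.22, adjusted p = 0.720). The acyltransferases of the next step differed by -0.22 (SE 0.11, unadjusted p = 0.0634) for Agpat1, 0.11 (SE 0.13) for Agpat2 and -0.05 (SE 0.06) for Agpat3. Agpat1 had levels of -2.34, -1.65 and -1.0 in responders, against -1.77, -1.40 and -1.07 in non-responders. Its range over both slide series together was wider in responders.

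The lipins convert phosphatidate to diacylglycerol, and lipin-1 also acts as a transcriptional coactivator. Lpin1 had levels of 1.63, 2.48 and 6.50 in responders, against 2.06, 3.79 and 6.22 in non-responders. Responders held both the lowest liver, responder 10, and the highest, responder 6, and the 20 livers spanned a 29.2-fold range. The difference of -0.98 (SE 0.67) was the largest in size among the 33 genes and had an adjusted p of 0.736 and a 95% interval from -2.39 to 0.42. Lpin2 had levels of 3.61, 4.29 and 5.56 in responders, against 3.79, 5.12 and 5.66 in non-responders. Of the responders, 8 of 10 lay below the mean of the non-responders in their slide series, and the difference was -0.59 (SE 0.28, unadjusted p = 0.0509, adjusted p = 0.626, exact permutation p = 0.0668). With each liver left out in turn, the Lpin1 difference ran from -1.31 (without responder 6) to -0.75 (without responder 10), and the Lpin2 difference from -0.76 to -0.46 (without responder 3). Lpin3 differed by 0.09 (SE 0.11).

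None of the genes of the last steps passed the test. Dgat2, encoding the diacylglycerol acyltransferase that handles newly made fatty acids, had levels of 7.66, 7.79 and 8.20 in responders, against 7.34, 7.85 and 8.10 in non-responders. The responders' median was the lower one while the fitted difference was 0.05 (SE 0.09, adjusted p = 0.910). Dgat1, the other enzyme of this step, differed by 0.08 (SE 0.10), and Mogat1, encoding a monoacylglycerol acyltransferase, by -0.02 (SE 0.12). Mttp encodes the microsomal triglyceride transfer protein that loads lipid onto apolipoprotein B. Its level was 1.91, 2.11 and 2.34 in responders, against 1.64, 2.05 and 2.21 in non-responders. These ranges overlapped for most livers, and the difference was 0.12 (SE 0.08, adjusted p = 0.718). Fitm1 and Fitm2, which encode proteins of lipid droplet formation, differed by 0.28 (SE 0.24) and -0.16 (SE 0.18). The Fitm1 difference was 0.095 without non-responder 10 and 0.43 without non-responder 7, and the Fitm2 difference was -0.036 without responder 10 and -0.094 without non-responder 6.

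The sign of the difference often changed between slide series: 15 of the 33 genes had the same sign in both series, beside 48.8% of all rows tested. Within series 1 alone 6 of the 33 genes had an unadjusted p under 0.05, beside 10.5% of all rows, and within series 2 alone 3 did, beside 6.9%. No row passed the adjustment in either series. Srebf1 differed by 1.02 (SE 0.30) in series 1 and by -0.39 (SE 0.20) in series 2. The test of that change between series gave an unadjusted p of 0.00142 and an adjusted p of 0.372. Lpin1 differed by -2.28 (SE 0.66) in series 1 and 0.32 (SE 0.97) in series 2, with an interaction p of 0.0497 and an adjusted p of 0.514. In all, 5 of the 33 genes had an unadjusted interaction p under 0.05, beside 9.71% of all rows, and no row passed the adjustment. Lpin2 differed by -1.07 and -0.10, and Fads2 by -0.45 and -0.05, in series 1 and 2.

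**Figure D3:**
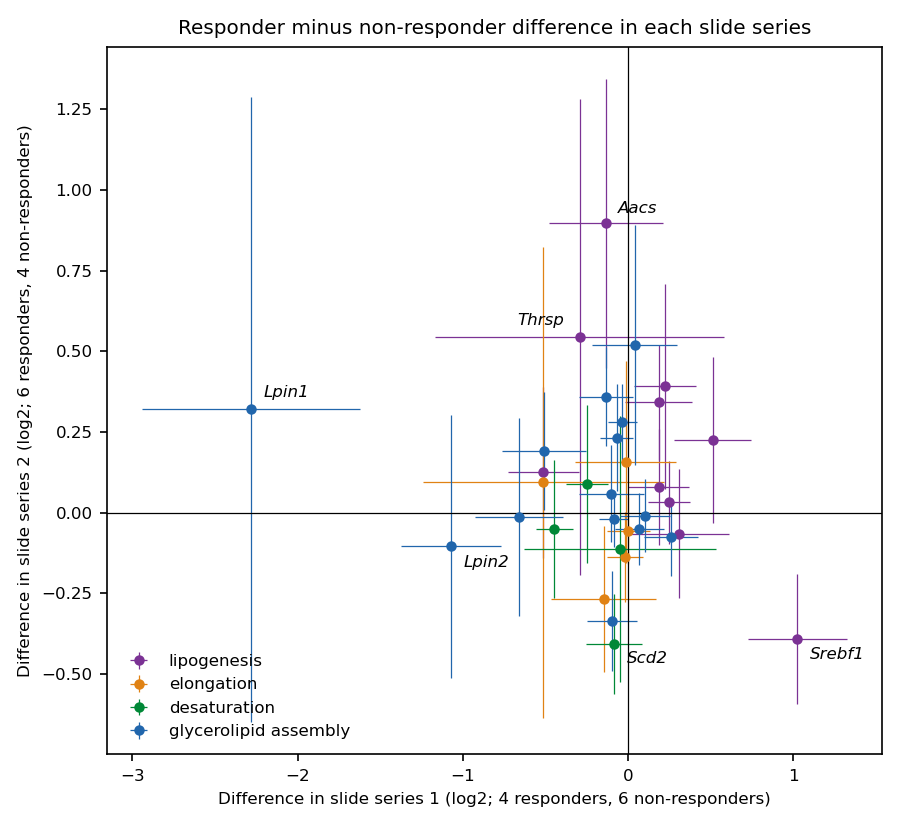
Difference between responder and non-responder livers (log2) in slide series 1 (horizontal) against series 2 (vertical) for the 33 genes, coloured by step, with bars of 1 SE. Srebf1 lies at 1.02 and -0.39 and Lpin1 at -2.28 and 0.32, while most genes lie near the origin on both axes.

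The genes differed widely in how much they varied between livers of a group. After removal of the mean of each group within each slide series, the SD between livers was 1.45 for Lpin1, 1.41 for Thrsp, 1.27 for Elovl3 and 0.88 for Scd1. These SDs were above those of 98.9%, 98.8%, 98.6% and 96.9% of all rows tested. In all, 6 of the 33 genes were above the 90th percentile of this spread and 9 were below the 50th. At the other end, the brightest probe of Agpat3 had an SD of 0.11, above that of 7.62% of all rows. Its 20 livers spanned a 1.34-fold range. A further Agpat3 probe had r = 0.16 with it and a larger unmoderated SE of the group difference (0.15 against 0.05). The livers spanned a 17.1-fold range for Thrsp and a 7.88-fold range for Scd1.

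Levels of the 33 genes varied together across the 20 livers in patterns that cut across the steps. Correlations were computed for all 528 pairs with 100000 permutations over all 20 livers, not within group or slide series. A shift between series or groups can therefore add to an r and to its p-value. In all, 47 positive (8.90%) and 17 negative (3.22%) pairs passed the Benjamini-Hochberg adjustment over the 528. Among all pairs of rows without gaps, 3.32% had an r at least that of the weakest of the 47, and 2.5% an r at most that of the weakest of the 17. Arrays share a scaling, a slide series and, on some slides, a slide, and so do these correlations. Lpin1 and Lpin2 had r = 0.93 and rho = 0.94 (permutation p = 1e-05 for each, the smallest that these permutations can give, adjusted p = 0.00176). Their r was 0.93 in series 1, 0.94 in series 2 and 0.93 without the 2 livers farthest from the median of Lpin1. Fads1 and Fads2 had r = 0.84 and rho = 0.83 (permutation p = 1e-05 for each, adjusted p = 0.00176), with r of 0.76 and 0.90 within the series and 0.79 without the 2 livers farthest from the Fads1 median. Aacs and Elovl6 had r = 0.84 and rho = 0.85 (permutation p = 1e-05 for each, adjusted p = 0.00176), with r of 0.87 and 0.84 within the series and 0.78 without the 2 livers farthest from the Aacs median.

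The most negative pairs joined genes of different steps. Thrsp and Elovl5 had r = -0.78 and rho = -0.73 (permutation p = 0.0001 and 0.00045, adjusted p = 0.0044 and 0.0132), with r of -0.88 and -0.62 within the series and -0.77 without the 2 livers farthest from the Thrsp median. Elovl3 and Dgat2 had r = -0.77 and rho = -0.77 (permutation p = 8e-05 and 0.00018, adjusted p = 0.0044 and 0.00853). That r was -0.90 and -0.63 within the series and -0.79 without the 2 livers farthest from the Elovl3 median. It rests on the brightest Dgat2 probe, which further Dgat2 probes followed at r of only 0.35 and 0.28. Their relation with Elovl3 was not tested. In livers with more Elovl3 signal, Thrsp was lower as well (r = -0.76, rho = -0.77, permutation p = 0.0002 and 0.0001, adjusted p = 0.0066 and 0.00853). That r was -0.91 and -0.67 within the series and -0.82 without the 2 livers farthest from the Thrsp median.

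**Figure D4:**
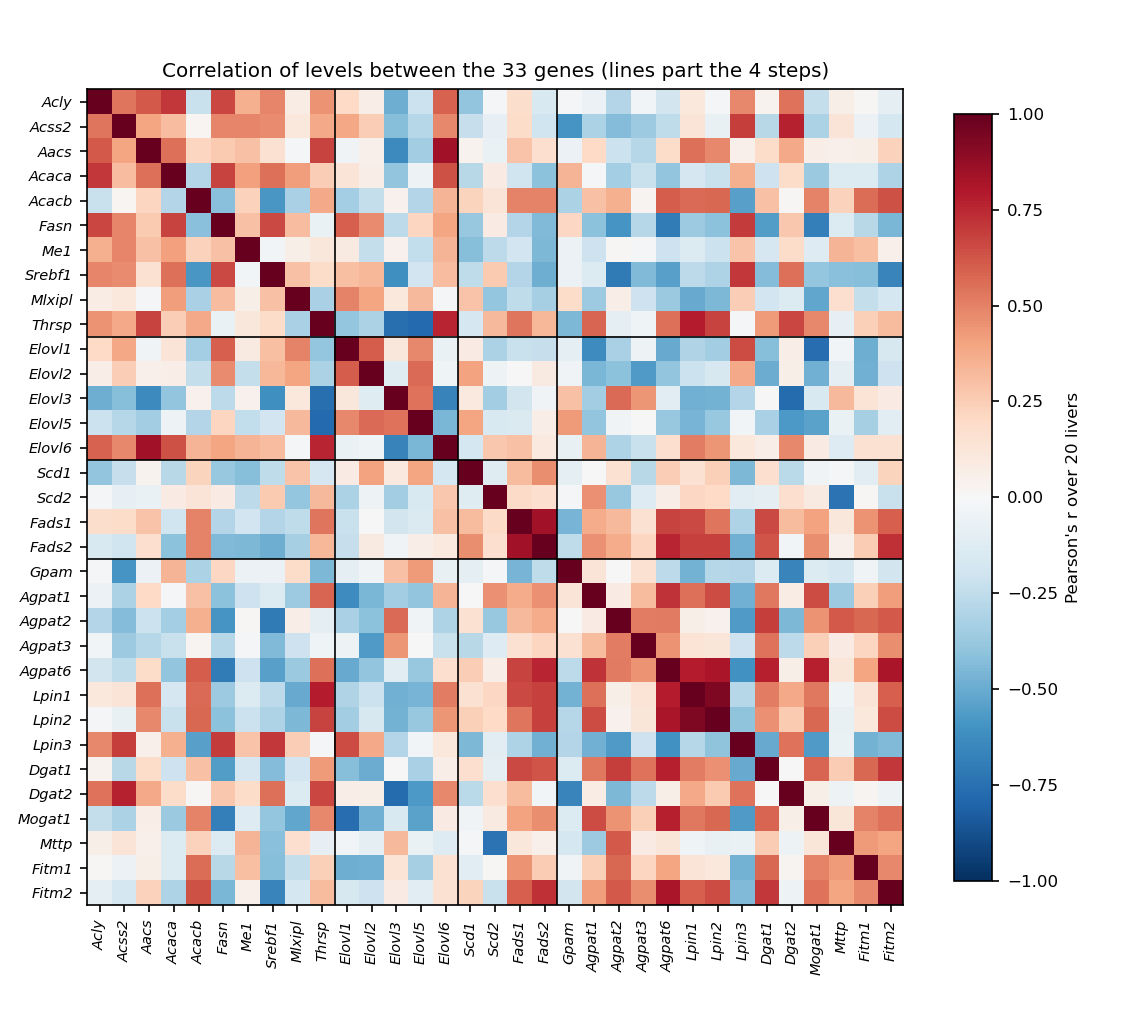
Pearson's r (colour) over the 20 livers for each pair of the 33 genes, ordered by step, with black lines between the steps. Lpin1 is positive with Lpin2 (0.93), Agpat6 (0.78), Fads2 (0.69), Fads1 (0.66) and Fitm2 (0.60). Fasn is negative with Agpat6 (-0.70) and Mogat1 (-0.68).

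Fasn was compared with each of the other 32 genes, with p-values adjusted over these 32 relations, and 5 positive and 4 negative relations passed. Of all rows, 3.95% had an r with Fasn at least that of the weakest of the 5, and 3.99% an r at most that of the weakest of the 4. Acaca had r = 0.67 and rho = 0.61 with Fasn (permutation p = 0.00138 and 0.00523, adjusted p = 0.00805 and 0.0262). Its r was 0.88 in series 1, 0.59 in series 2 and 0.56 without the 2 livers farthest from the Fasn median. Acly had r = 0.66 and rho = 0.59 (permutation p = 0.00151 and 0.00738, adjusted p = 0.00805 and 0.0262), and its r was 0.87 in series 1, 0.32 in series 2 and 0.56 without those 2 livers. Srebf1 had r = 0.66 and rho = 0.59 (permutation p = 0.00127 and 0.00723, adjusted p = 0.00805 and 0.0262), with 0.61 and 0.46 within the series and 0.51 without those 2 livers. The other positive relations were with Lpin3 (r = 0.70) and Elovl1 (r = 0.60), and both were weaker in series 2, at 0.17 and 0.19.

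Genes of glycerolipid assembly made up all 4 negative relations with Fasn that passed. Agpat6 had r = -0.70 and rho = -0.75 (permutation p = 0.00083 and 0.00037, adjusted p = 0.00805 and 0.00688), with -0.66 and -0.55 within the series and -0.64 without the 2 livers. Mogat1 had r = -0.68 and rho = -0.73 (permutation p = 0.00095 and 0.00043, adjusted p = 0.00805 and 0.00688), with -0.43 and -0.80 within the series and -0.64 without the 2 livers. Agpat2 (r = -0.59) and Dgat1 (r = -0.56) were the others. After removal of the same means, r with Fasn was 0.77 for Acaca, 0.70 for Acly, 0.66 for Gpam and 0.56 for Srebf1, and -0.57 for Agpat6. On that scale Lpin3 had 0.47 and Elovl1 0.33. None of the negative relations passed the adjustment on that scale, and 3 positive ones did. Without that removal Gpam had r = 0.21 (adjusted p = 0.411), so the 3 need not be among the 5 named above. Scd1, a desaturase often grouped with Fasn, had r = -0.38 (adjusted p = 0.173), and Thrsp had r = -0.07 (adjusted p = 0.774).

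The Lpin1 relations were examined after its spread had been seen. Of 32 relations, 9 positive and 0 negative ones passed the adjustment over the 32, and 5.39% of all rows had an r at least that of the weakest of the 9. Thrsp had r = 0.79 and rho = 0.71 (permutation p = 9e-05 and 0.00068, adjusted p = 0.00096 and 0.00544), with 0.68 and 0.91 within the series and 0.73 without the 2 livers farthest from the Lpin1 median. Agpat6 had r = 0.78 and rho = 0.75 (permutation p = 4e-05 and 0.00021, adjusted p = 0.00064 and 0.00224), with 0.82 and 0.84 within the series and 0.73 without those 2 livers. Fads2 followed at r = 0.69 and Fads1 at r = 0.66, then Fitm2 (0.60), Acacb (0.57), Agpat1 (0.55) and Aacs (0.55). Without those 2 livers, r was 0.60 for Fads2, 0.48 for Fads1, 0.53 for Fitm2, 0.38 for Acacb, 0.60 for Agpat1 and 0.44 for Aacs. Within the series, r was 0.74 and 0.38 for Acacb and 0.44 and 0.67 for Aacs. The Agpat1 relation rests on its brightest probe, which a further Agpat1 probe did not follow (r = -0.02). Of all rows tested, 0.0235% had an r with Lpin1 at least that of Lpin2, and 0.915% at least that of Thrsp.

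**Figure D5:**
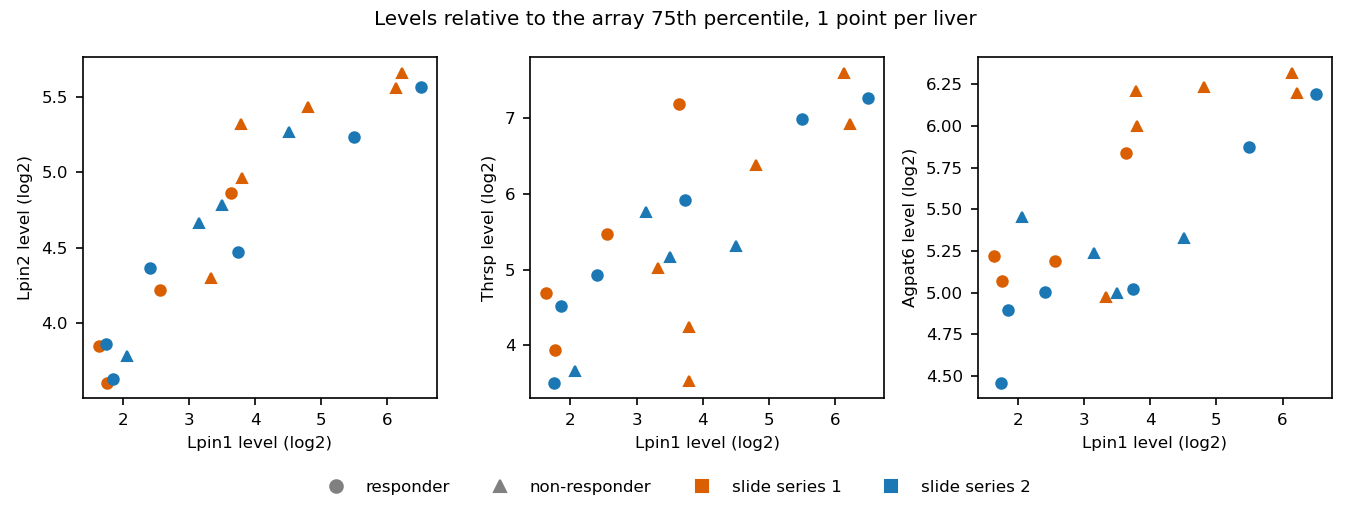
Levels of Lpin2, Thrsp and Agpat6 (vertical, log2 relative to the 75th percentile of the array) against Lpin1 (horizontal) in the 20 livers, with circles for responders, triangles for non-responders and colours for slide series. Lpin2 follows Lpin1 closely (r = 0.93), and livers of both groups lie along the same band.

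The starts of 4 genes are shown because Fasn with Acly, and Lpin1 with Thrsp, varied together across livers. The sequences are the 250 bases before the RefSeq start in GRCm38.p6, 5′ to 3′ on the strand of the gene, which is the minus strand for all 4. Capitals mark matches, on either strand, to the CCAAT box (CCAAT), the GC box (GGGCGG), the E-box (CACGTG), the sterol regulatory element (TCACNCCAC) or the nuclear receptor half-site (AGGTCA).
Fasn, chr11:120824548-120824797: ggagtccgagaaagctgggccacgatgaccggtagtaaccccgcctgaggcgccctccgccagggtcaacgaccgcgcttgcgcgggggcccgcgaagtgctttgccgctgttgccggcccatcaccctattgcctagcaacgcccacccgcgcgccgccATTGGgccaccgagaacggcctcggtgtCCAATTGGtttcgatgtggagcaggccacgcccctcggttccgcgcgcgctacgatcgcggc
Acly, chr11:100528001-100528250: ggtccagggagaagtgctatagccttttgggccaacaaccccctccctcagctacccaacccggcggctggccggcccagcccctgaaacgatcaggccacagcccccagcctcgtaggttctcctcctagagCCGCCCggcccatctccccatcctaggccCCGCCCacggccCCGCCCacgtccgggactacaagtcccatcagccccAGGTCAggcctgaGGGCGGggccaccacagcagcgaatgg
Lpin1, chr12:16610967-16611216: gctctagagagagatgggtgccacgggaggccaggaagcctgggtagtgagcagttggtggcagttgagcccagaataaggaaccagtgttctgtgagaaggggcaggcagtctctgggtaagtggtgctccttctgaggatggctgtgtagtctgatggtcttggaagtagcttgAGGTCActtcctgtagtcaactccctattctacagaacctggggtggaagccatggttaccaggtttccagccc
Thrsp, chr7:97417551-97417800: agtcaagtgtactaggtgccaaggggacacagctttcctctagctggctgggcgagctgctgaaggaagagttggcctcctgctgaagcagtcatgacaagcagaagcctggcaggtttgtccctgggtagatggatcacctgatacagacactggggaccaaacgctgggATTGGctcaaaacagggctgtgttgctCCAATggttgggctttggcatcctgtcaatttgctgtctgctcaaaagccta

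Fasn held 3 CCAAT matches, of which 2 overlap on opposite strands, and Thrsp held 2, while Acly and Lpin1 held none. Acly held 4 GC boxes and 1 half-site, and Lpin1 held 1 half-site. Neither pair shared a motif of this search, and the absence of a match says only that these letters are not in these windows. Over the 26 of the 33 genes matched in the table, CCAAT was present in 12, beside 33.8% of all 32851 promoters, and GGGCGG in 14, beside 32.7%. The half-site was present in 6, beside 14.0%, the E-box in 3 (Elovl5, Lpin2 and Mlxipl), beside 6.02%, and the sterol regulatory element in Mlxipl alone, beside 1.05%. A gene was counted if any of its promoters held the motif, while the shares are of single promoters, so the measures are unlike. A match describes the letters and is not a measured binding site.

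Among 62 other genes of the pathway, which cover regulators, carbon and NADPH supply, the rest of the elongation and desaturation machinery, and further glycerolipid and lipoprotein genes, 56 were tested. Differences were above 0 for 34 and below 0 for 22, with a median of 0.03. None passed the adjustment. At an unadjusted p under 0.05 there were 5 above 0, beside 4.33% of all rows, and 1 below 0, beside 3.69%. All 6 had the same sign in both slide series. Pklr, encoding liver pyruvate kinase, differed by 0.41 (SE 0.19, adjusted p = 0.620), and Slc25a1, encoding the mitochondrial citrate carrier, by 0.21 (SE 0.08, adjusted p = 0.538). Both genes belong to the supply of carbon and NADPH, in which 7 of 11 differences were above 0. Cyb5r3, encoding the cytochrome b5 reductase that serves desaturases, differed by 0.18 (SE 0.07, adjusted p = 0.585). P4hb, encoding the partner subunit of the triglyceride transfer protein, differed by 0.17 (SE 0.07, adjusted p = 0.593). The single negative difference belonged to Ppargc1b, encoding a coactivator of SREBP-1, at -0.41 (SE 0.18, adjusted p = 0.593).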

How the data were processed

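The authors deposited 1 scanner file per array, made with Agilent Feature Extraction (version 10.5.1.1 per the file headers, 9.1 per the submitters' processing notes). Per the file headers, the software had subtracted background from each processed intensity and removed spatial trends within an array, on a linear scale and without scaling across arrays. A table of intensities from the authors, whose making no source used here describes, served as an alternative only.

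Controls and spots marked as outliers were removed, and log2 intensities minus the array's 75th percentile were averaged over the spots of each probe. A probe was kept (26160 were) if 5 or more arrays of responders or of non-responders had it well above background, and the brightest such probe stood for its gene. Of the 64 probes of the 33 genes 63 were kept, and for the 19 genes with several, all agreed in sign of the difference. Levels of further probes well above background on every array followed the brightest probe unevenly. Their r with it was -0.02 for Agpat1, 0.16 for Agpat3, 0.35 and 0.28 for Dgat2 and 0.43 for Mlxipl. It was 0.98 for Fasn and 0.996 for each further Lpin1 probe. Levels and correlations are those of the brightest probe. Symbols came from RefSeq's GRCm38.p6 gene table, used for names only because probe positions are on mm9. Differences came from limma 3.58.1 (R 4.3.3) with empirical Bayes moderation. Single genes were also tested by exact permutation within slide series over 44100 arrangements. Correlations were tested by 100000 permutations over all livers, not within series, with NumPy 2.4.6 in Python 3.11.15. The fit and the correlations were tested on simulated data.

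The 33 genes, the other gene lists and the tests were chosen with earlier results of these data known. All 33 genes are named, with liver values for Fasn, Acaca, Scd1, Srebf1, Mlxipl, Elovl6, Gpam, Dgat2, Mttp and any gene at an unadjusted p under 0.05, and, after their values were seen, for the further genes that the text lists. Of the other pathway genes, those at an unadjusted p under 0.05 with 1 sign in both series are named, except 1 gene that is not reported here. Numbers in the sample titles were not taken to pair the samples, and whether they do is not known. Deviations from the fit of group and slide series correlated above 0.1 in 6 of 10 same-numbered pairs (range -0.22 to 0.58). Pairs with different numbers were not compared. Alternatives covered the background correction, scaling, filter, probe choice, slide series, slide, title number, Adipoq level and each liver left out.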

Additional observations from a re-analysis of the deposited data

Results flagged for a closer look

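In 4 of 66 sets of 10 livers (33 genes in each group), the lowest or highest liver lay farther from its neighbour than Dixon's 95% limit allows, which is a gap of 0.466 of the whole range. Chance flags about 1 in 20 such sets. The highest level of Acacb in responders was 2.72, in responder 6, with the next at 2.07. Among non-responders, the lowest levels were 0.54 for Aacs in non-responder 8 (next 1.70), 3.31 for Fads1 in non-responder 9 (next 3.72) and 0.16 for Me1 in non-responder 10 (next 1.00). All 4 livers were in slide series 2. Without that liver, the difference was -0.29 for Acacb, 0.13 for Aacs, -0.17 for Fads1 and 0.13 for Me1, against -0.19, 0.38, -0.08 and 0.31 with all livers.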

How the results depend on the processing

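No gene passed an adjusted p of 0.05 in any setting tried, and no alternative brought any of the 33 genes past it. The count of the 33 genes at an unadjusted p under 0.05, 0 in the report, was 0 with the authors' deposited table (32 of the 33 genes held, 8.45% of all rows), with no filter on dim probes (5.64%) and with the mean of all probes (8.14%). It was 1 with normexp background correction (2.32% of all rows), 1 with quantile normalization (8.38%), 1 with slide as a random block (7.97%, correlation 0.04), 2 with a filter for signal well above background on every array (8.31%), 2 with Adipoq as a covariate (6.6%), 2 with plain background subtraction (5.24%) and 5 without the slide series term (7.35%). Without each liver in turn it ran from 0 to 5, beside 6.46% to 9.76% of all rows. It was 5 without responder 6, 4 without non-responder 4 or 9, 3 without responder 2, 5 or 7, 2 without responder 10 or non-responder 7 or 8, and 1 without responder 1 or non-responder 3, 5, 6 or 10. Fits without a liver turned the sign of 7 genes at least once, in 26 of 660 fits, and moved the difference of 24 genes by over 1.5 times at least once. With a replicate block on the title number, the count was 8, beside 10.6% of all rows. Whether that number pairs the samples is not known. In the blocked fit 3 differences turned: Thrsp -0.28, Elovl3 0.080 and Dgat2 -0.0096.

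Normexp moved the median differences most, to -0.16 for lipogenesis, -0.60 for elongation and -0.39 for glycerolipid assembly, and 13 of the 22 reversals among 362 values came with it. They were Acss2 -0.16, Fasn -0.37, Srebf1 -0.16, Mlxipl -0.37, Thrsp -0.36, Elovl6 -0.22, Gpam -0.49, Agpat1 0.0043, Agpat2 -0.34, Dgat1 -0.10, Dgat2 -0.44, Mogat1 0.31 and Mttp -0.12. It also compressed some arrays: the SD of log2 values was 0.51 in responder 1 and 1.35 in responder 5 after normexp, beside 2.12 and 2.56 after plain subtraction. Other reversals were Elovl1 0.050 and Gpam -0.034 without the series term, Fads1 0.0035 and Gpam -0.032 with Adipoq, and Elovl1 0.0047 and Mogat1 0.00035 with plain subtraction. The cause was not tested. Plain subtraction and the alternatives for correlations were chosen after seeing the data. With group and series means removed, 3 positive and 0 negative Fasn relations passed the adjustment, against 5 and 4 in the report. Those 3 need not be among the 5. Negative Lpin1 relations, 0 in the report, numbered 2 with quantile normalization, 1 with the authors' table and 3 with means removed. The 10 livers in each group limit the precision, and 7 of the 33 intervals are wider than 1 on the log2 scale.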
